A study of Mus musculus with 20 samples.

Results

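The cell cycle and DNA replication genes are 50 mouse genes, of 53599 gene symbols counted, that were taken by name from both deposited count tables of a liver study. They comprise 24 genes of the G1/S side of the cycle, 25 genes of the G2/M side, and Cdkn1a, which encodes the cyclin-dependent kinase inhibitor p21. All 50 had a row in both tables. RNA-seq of bulk liver was done in 20 mice, 10 PPARa knockouts (KO) and 10 that expressed human PPARa (hPPARa), and PPARa is the nuclear receptor through which fatty acids and many fibrate-like chemicals switch on fat oxidation genes. The exposure was perfluorooctanoic acid (PFOA), a persistent fluorinated surfactant, given in drinking water from weaning for 6 to 7 weeks at a dose written as 8 µm in the labels and read here as 8 µM. The PFOA groups were KO males (3), KO females (3), hPPARa males (3) and hPPARa females (2), and the vehicle groups were KO males (3), KO females (1), hPPARa males (2) and hPPARa females (3). All mice, controls included, drank water with 0.5% sucrose and ate a custom diet modelled on American intake. The promoter that drives the human receptor, the deleted part of mouse Ppara, the strain and the exact age are not stated in the labels. Nothing in the labels states whether litters or cages were shared between replicates.

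The cell cycle is driven by cyclins that switch cyclin-dependent kinases on in turn. D-type cyclins with Cdk4, then E-type cyclins with Cdk2, release the E2F transcription factors, which turn on the genes for origin licensing, the replicative helicase and nucleotide supply. Cyclins A and B with Cdk1 then bring cells into mitosis, where the spindle, the kinetochore checkpoint and the anaphase-promoting complex separate the chromosomes. The adult liver is largely quiescent, its hepatocytes can re-enter the cycle after injury or exposure to receptor agonists, and many mouse hepatocytes become polyploid by copying DNA without dividing. Most G2/M genes are repressed in quiescent cells by the DREAM complex, which binds a short promoter sequence called the CHR element (cell cycle genes homology region), while G1/S genes carry E2F sites.

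Promoter stretches of 10 members show these letters. From each side of the cycle, members that rose with PFOA in hPPARa livers were taken by smallest adjusted p. Members without a promoter sequence at hand were passed over. Not all genes the results turn on are among them, and Mki67, Mcm3 and Rrm1 are not printed. RefSeq windows (assembly GRCm38.p6, from 250 bases before to 50 bases after the annotated start) were at hand for 40 of the 50 members, 19 of G1/S, 20 of G2/M and Cdkn1a. Each line below runs 5′ to 3′ on the gene's strand from 100 bases before to 20 bases after the start. Capitals mark an exact CHR element (TTTGAA, or TTCAAA for the other strand) or an exact E2F-type element (TTCGCGC or TTGGCGC, or their reverse complements GCGCGAA and GCGCCAA).
Top2a: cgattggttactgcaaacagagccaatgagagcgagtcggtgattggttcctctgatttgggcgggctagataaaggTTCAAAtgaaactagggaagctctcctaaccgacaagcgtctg
Cenpf: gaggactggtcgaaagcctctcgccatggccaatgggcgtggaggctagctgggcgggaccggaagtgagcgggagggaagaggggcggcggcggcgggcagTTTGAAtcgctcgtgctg
Cdk1: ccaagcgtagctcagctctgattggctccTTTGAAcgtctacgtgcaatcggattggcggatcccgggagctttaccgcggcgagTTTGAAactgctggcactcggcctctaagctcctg
Ccnb1: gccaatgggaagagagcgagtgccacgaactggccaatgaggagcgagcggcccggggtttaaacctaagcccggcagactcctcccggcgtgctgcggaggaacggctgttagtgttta
Hmmr: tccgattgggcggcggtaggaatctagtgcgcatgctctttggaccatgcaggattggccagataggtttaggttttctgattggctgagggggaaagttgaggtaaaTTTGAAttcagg
Ect2: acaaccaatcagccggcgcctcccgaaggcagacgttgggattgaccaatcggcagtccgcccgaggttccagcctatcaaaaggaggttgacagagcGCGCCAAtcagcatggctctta
Cdc45: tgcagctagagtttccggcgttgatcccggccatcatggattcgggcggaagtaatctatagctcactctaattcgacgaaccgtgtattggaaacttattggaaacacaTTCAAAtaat
E2f8: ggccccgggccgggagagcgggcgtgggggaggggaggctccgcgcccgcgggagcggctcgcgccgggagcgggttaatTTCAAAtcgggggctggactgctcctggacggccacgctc
Mcm2: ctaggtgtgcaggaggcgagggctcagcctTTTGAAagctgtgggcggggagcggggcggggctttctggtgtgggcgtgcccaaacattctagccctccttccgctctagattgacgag
Cdk4: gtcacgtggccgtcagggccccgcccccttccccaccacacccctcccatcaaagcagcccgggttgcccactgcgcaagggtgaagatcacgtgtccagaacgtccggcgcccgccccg
The stretches lie at chr11:99024170-99024289 (Top2a, minus strand), chr1:189688067-189688186 (Cenpf, minus strand), chr10:69352893-69353012 (Cdk1, minus strand), chr13:100786467-100786586 (Ccnb1, minus strand), chr11:40733418-40733537 (Hmmr, minus strand), chr3:27153859-27153978 (Ect2, minus strand), chr16:18811953-18812072 (Cdc45, minus strand), chr7:48881577-48881696 (E2f8, minus strand), chr6:88898761-88898880 (Mcm2, minus strand) and chr10:127063435-127063554 (Cdk4, plus strand). The Cdk1 stretch holds 2 CHR elements, the Ccnb1 and Cdk4 stretches hold no exact match, and the Ect2 stretch holds an E2F-type element that overlaps a CCAAT box. CCAAT boxes (CCAAT or ATTGG) are common in the G2/M stretches and are left in lower case. Ect2 has 2 annotated starts, and its CHR elements lie outside the printed stretch.

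Over the whole 300-base windows, an exact CHR element was found in 15 of 20 G2/M members (75%), 3 of 19 G1/S members (15.8%) and 20.2% of 27025 genes with a window. The 3 G1/S members were Cdc45, E2f8 and Mcm2, all printed above, and the G2/M members without one were Ccnb1, Birc5, Bub1, Cenpe and Nusap1. Within 100 bases before and 50 bases after the start the shares were 75% for G2/M, 15.8% for G1/S and 9.23% for all genes. An E2F-type element was found in 31.6% of G1/S members, 25% of G2/M members and 4.47% of all genes, and a CCAAT box in 63.2%, 85% and 41.1%. These are letter matches, not measured binding, and no test was made.

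**Figure D1:**
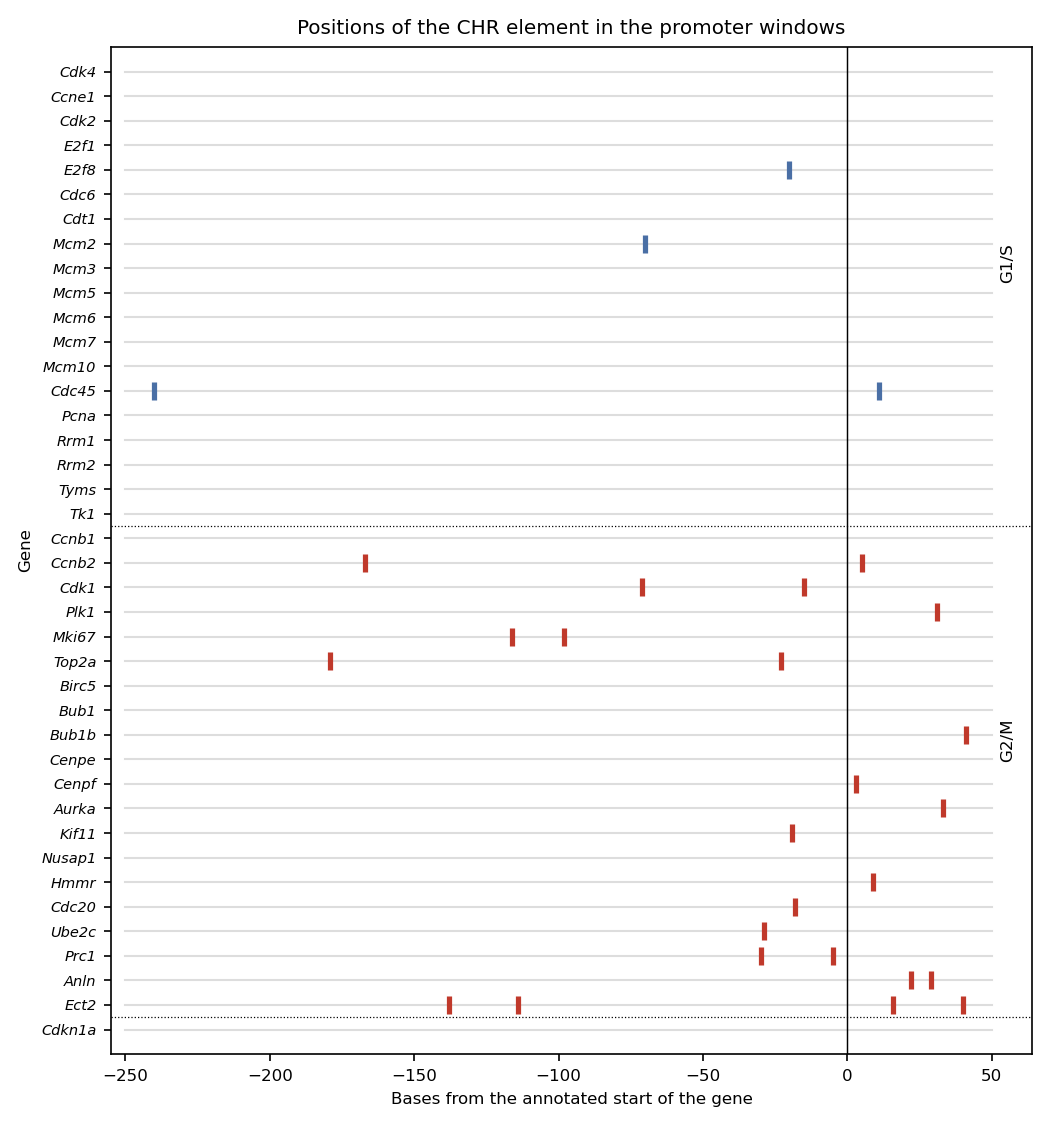
Position of each exact CHR element (TTTGAA on either strand) relative to the annotated transcription start, in bases, in the RefSeq windows of 40 members; a gene with 2 windows has its elements marked from each start. G2/M members hold most of the matches and carry them near the start, whereas Cdc45, E2f8 and Mcm2 are the G1/S members with one.

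Library totals ran from 14973673 to 17953860 counts, and levels are given as CPM, the count as a share of the scaled library total. The Ppara row, a count of mouse Ppara reads, gave 8.42 to 25.1 CPM in KO PFOA livers and 21.2 to 39.6 CPM in hPPARa PFOA livers, against 19.9 to 22.2 CPM in KO vehicle livers and 16.9 to 27 CPM in hPPARa vehicle livers. It therefore gives no check of the genotype labels. KO female PFOA replicate 2 (Ddx3y, on the Y chromosome, 4.06 CPM), KO female vehicle replicate 1 (Ddx3y 1.86 CPM) and KO male PFOA replicate 2 (Xist, from the inactive X, 30.8 CPM) held transcripts of the other sex. The library that stood apart in the cell cycle genes was hPPARa female PFOA replicate 2, which was the highest of all 20 libraries in 25 of 25 G2/M members and in 11 of 24 G1/S members. Many of the counts and medians that rest on these libraries are given with and without them. Medians by role, counts of groups that did not overlap, medians within a sex and the further gene lists are given with all libraries only. The correlations within groups include hPPARa female PFOA replicate 2. In bulk liver, more cycling cells and more RNA per cell cannot be told apart.

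**Figure D2:**
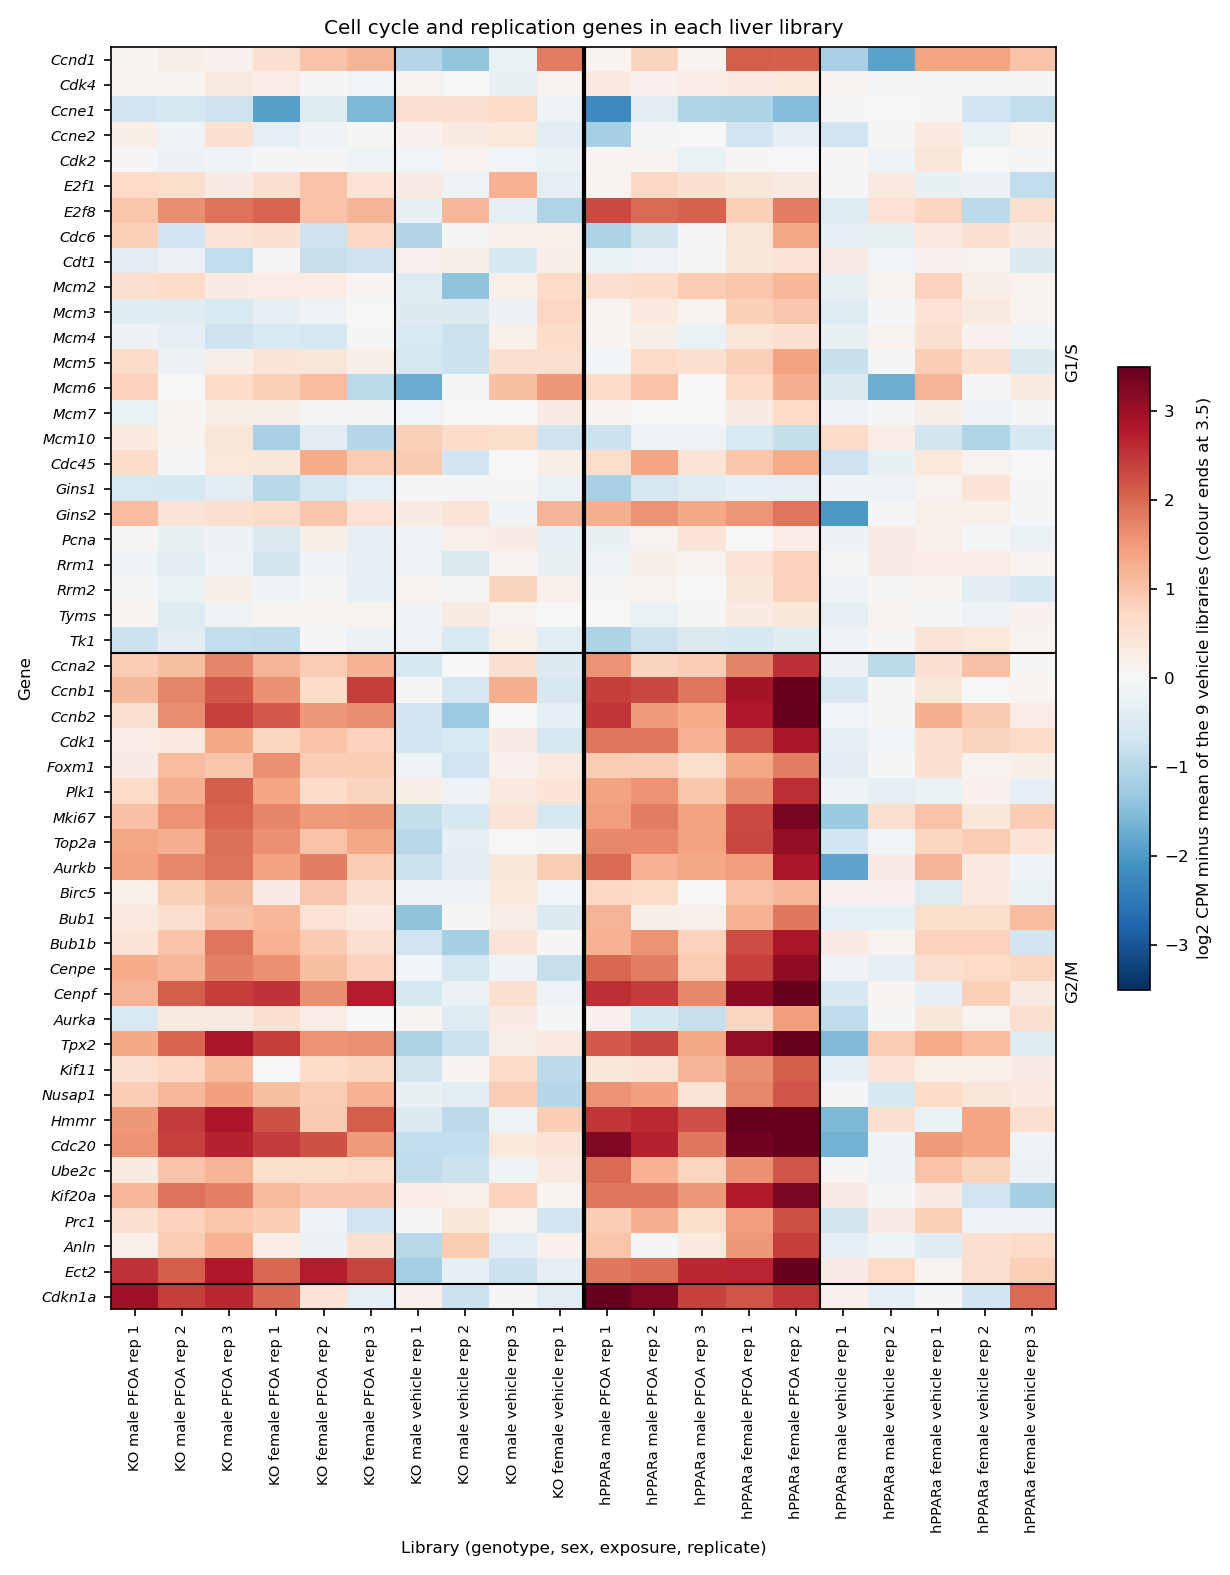
log2 CPM of each of the 50 genes (rows) in each of the 20 libraries (columns), less the mean of the 9 vehicle libraries, with PFOA libraries left of vehicle libraries within each genotype. Red is above the vehicle mean and blue below. The G2/M block is mostly red across the 11 PFOA libraries of both genotypes, most deeply in hPPARa female PFOA replicate 2, and the G1/S block is mixed.

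PFOA raised the mitotic machinery of hPPARa livers as a block. Of 25 G2/M members, 23 rose and none fell, at a median log2 fold change of 1.98, led by Ccnb1, Hmmr, Cenpf and Cdc20. No vehicle liver reached 10 reads of Ccnb1, Cenpf, Plk1 or Bub1, nor of Gins2 in G1/S. These genes passed the filter at 10 counts only through PFOA livers, so a fall in them could not have been called. Of 23 G1/S members tested, 7 rose and 3 fell, with a median of 0.29. Cdkn1a rose as well. These calls are edgeR quasi-likelihood tests of the 5 PFOA against the 5 vehicle livers with sex as a covariate, at an adjusted p under 0.05 (Benjamini-Hochberg over 14400 genes). Among all genes tested 12.8% rose and 9.76% fell, with a median log2 fold change of -0.01. Groups did not overlap, with every PFOA liver above every vehicle liver, in 15 G2/M and 4 G1/S members, against 8.64% of all genes, and every PFOA liver was below in 2 G1/S members, against 5.67%.

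Cyclin B1 and Cdk1 form the kinase that starts mitosis. Ccnb1 had 1.24 and 2.44 CPM in PFOA females and 0.848, 0.805 and 0.542 CPM in PFOA males, against 0.122, 0.0608 and 0.0691 CPM in vehicle females and 0 and 0.0671 CPM in vehicle males. Every PFOA liver lay above every vehicle liver, although the vehicle level rests on only 5 reads over 5 libraries. The log2 fold change was 4.28 ± 0.48 (SE, adjusted p = 4.07e-05 by edgeR), or 19.5-fold. Cdk1 had 4.89 and 8.06 CPM in PFOA females and 4.06, 3.96 and 2.53 CPM in PFOA males, against 1.52, 1.82 and 1.66 CPM in vehicle females and 0.78 and 0.939 CPM in vehicle males. Again the groups were apart, and Cdk1 rose 3.94-fold (log2 1.98 ± 0.22, adjusted p = 3.49e-05 by edgeR). All 6 genes of mitotic entry rose, with a median log2 fold change of 2.15. The others were Ccnb2 (2.40 ± 0.32) and Ccna2 (1.70 ± 0.28), both cyclins, the mitotic kinase Plk1 (2.33 ± 0.34) and Foxm1 (1.25 ± 0.21), a transcription factor of G2/M genes.

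Genes that shape and hold mitotic chromosomes rose in 7 of 8 cases, with a median log2 fold change of 2.03. Top2a, the topoisomerase that untangles sister DNA, had 7.08 and 11.9 CPM in PFOA females and 4.42, 4.46 and 3.67 CPM in PFOA males, against 2.25, 2.49 and 1.87 CPM in vehicle females and 0.78 and 1.21 CPM in vehicle males. Its lowest PFOA liver stood above its highest vehicle liver (log2 2.08 ± 0.20, adjusted p = 1.14e-05 by edgeR). Mki67 encodes Ki-67, the usual stain for proliferating cells. It had 9.28 and 18.8 CPM in PFOA females and 5.09, 6.44 and 4.94 CPM in PFOA males, against 3.66, 2.37 and 3.32 CPM in vehicle females and 0.65 and 2.68 CPM in vehicle males, and rose by log2 1.98 ± 0.31 (adjusted p = 0.00108 by edgeR). Here too the groups were apart. Cenpf, a kinetochore protein, had 3.15 and 5 CPM in PFOA females and 2.12, 1.92 and 1.08 CPM in PFOA males, against 0.183, 0.547 and 0.346 CPM in vehicle females and 0.13 and 0.268 CPM in vehicle males. Its groups did not overlap, and it rose 10.1-fold (adjusted p = 2.43e-05 by edgeR), from a vehicle level of only 2 to 9 reads per library. Cenpe (2.24 ± 0.30), Aurkb (2.11 ± 0.50), Bub1b (1.91 ± 0.39) and Birc5 (0.78 ± 0.23) rose on the log2 scale, and Bub1, a checkpoint kinase, did not pass (1.08 ± 0.42, adjusted p = 0.0758 by edgeR).

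Of the spindle genes, 4 of 5 rose, with a median log2 fold change of 1.62. Hmmr, a spindle-associated hyaluronan receptor, had 4.33 and 5.91 CPM in PFOA females and 1.88, 2.04 and 1.57 CPM in PFOA males, against 0.183, 0.791 and 0.415 CPM in vehicle females and 0 and 0.402 CPM in vehicle males. That was a 10.2-fold rise with no overlap (adjusted p = 8.76e-05 by edgeR), from a vehicle level of only 0 to 13 reads per library. Tpx2 (2.57 ± 0.46), Nusap1 (1.62 ± 0.27) and the motor Kif11 (1.27 ± 0.29) rose on the log2 scale. The kinase Aurka, which Tpx2 activates, did not pass (0.49 ± 0.28, adjusted p = 0.215 by edgeR). Its vehicle livers ran from 0.974 to 2.83 CPM and overlapped the PFOA range of 1.02 to 5.45 CPM.

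All 6 genes of anaphase and cytokinesis rose, with a median log2 fold change of 1.90. Cdc20 activates the anaphase-promoting complex. It had 5.9 and 10.8 CPM in PFOA females and 5.39, 3.65 and 1.99 CPM in PFOA males, against 1.52, 1.4 and 0.415 CPM in vehicle females and 0.065 and 0.402 CPM in vehicle males, a 9.09-fold rise (log2 3.18 ± 0.44, adjusted p = 0.000479 by edgeR). Kif20a, a motor of the central spindle, had 5.96 and 8.63 CPM in PFOA females and 3.09, 3.1 and 2.41 CPM in PFOA males, against 0.975, 0.426 and 0.277 CPM in vehicle females and 0.974 and 0.738 CPM in vehicle males, a 6.87-fold rise (adjusted p = 0.000243 by edgeR). Both genes had groups apart. Ect2, which turns on RhoA to form the cleavage furrow, had 4.5 and 8.52 CPM in PFOA females and 2.48, 2.73 and 4.4 CPM in PFOA males, against 0.67, 0.973 and 1.18 CPM in vehicle females and 0.78 and 1.07 CPM in vehicle males. Its groups were apart as well, and it rose 5.07-fold (adjusted p = 0.000102 by edgeR). The ubiquitin-conjugating enzyme Ube2c (1.43 ± 0.29), the midzone protein Prc1 (1.46 ± 0.30) and the ring protein Anln (1.42 ± 0.34) also rose on the log2 scale.

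**Figure D3:**
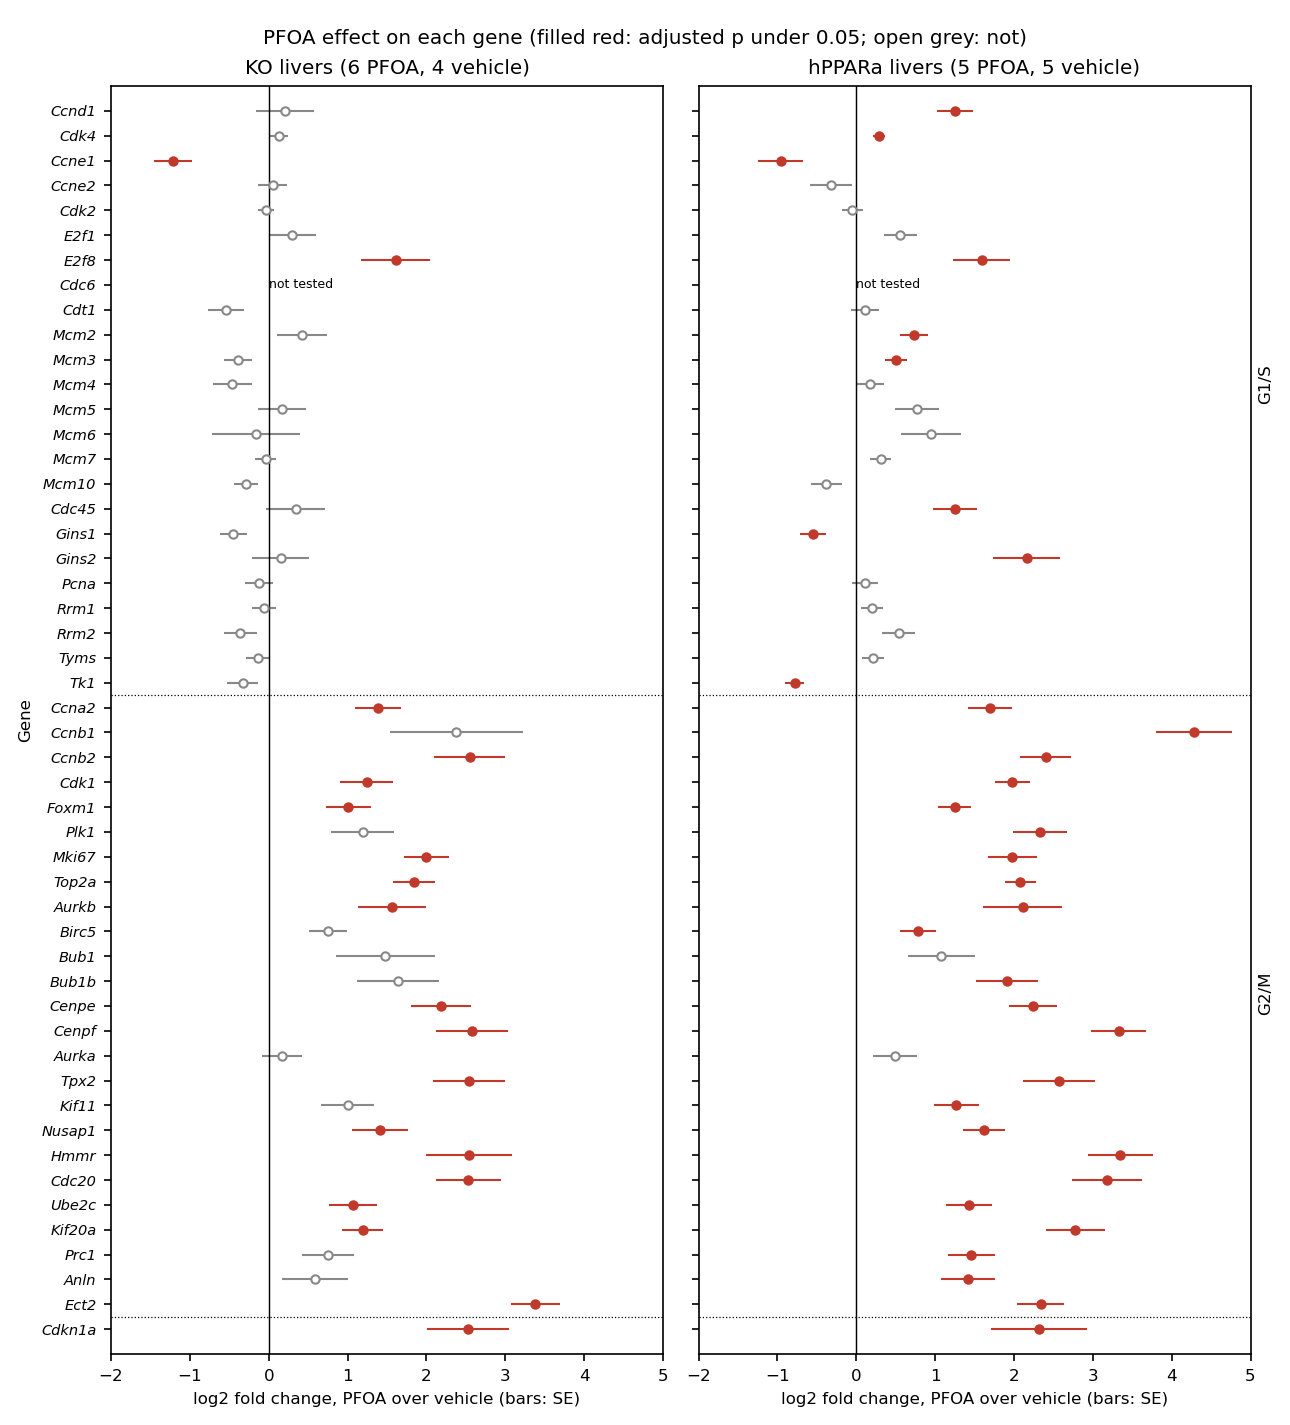
log2 fold change of PFOA over vehicle for each gene, with its SE as a bar, in KO livers (left) and hPPARa livers (right); filled red points passed an adjusted p of 0.05. G2/M genes sit right of 0 in both genotypes, and G1/S genes scatter about 0, more of them to the right in hPPARa livers.

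The G1/S genes of hPPARa livers did not move as one group. Among the G1 cyclins and kinases, Ccnd1 and Cdk4 rose and Ccne1 fell, while Ccne2 and Cdk2 did not pass. Ccnd1 encodes cyclin D1, the growth-factor-driven cyclin of early G1. It had 54.6 and 54.1 CPM in PFOA females against 32.9, 32.9 and 25.2 CPM in vehicle females, and 13.4, 21.3 and 13 CPM in PFOA males against 5.65 and 3.35 CPM in vehicle males. Within each sex every PFOA liver was higher, and the fitted change was log2 1.25 ± 0.23 (adjusted p = 0.00382 by edgeR). Cdk4, its partner kinase, had 57.4 and 58.6 CPM in PFOA females and 58.3, 50.8 and 54.6 CPM in PFOA males, against 44.7, 46.7 and 44.6 CPM in vehicle females and 49.1 and 44.5 CPM in vehicle males, a small rise without overlap (0.29 ± 0.08, adjusted p = 0.0188 by edgeR). Ccne1, cyclin E1, fell by 0.96 on the log2 scale (SE 0.29, adjusted p = 0.0311 by edgeR). Its PFOA livers had 0.969 to 3.72 CPM and its vehicle livers 2.63 to 4.96 CPM, so the groups overlapped, and the call was lost in 7 of 17 alternatives.

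Of the E2F factors, E2f8, an atypical repressor of E2F targets that promotes hepatocyte polyploidy, had 3.15 and 6.25 CPM in PFOA females and 8.97, 7.12 and 7.53 CPM in PFOA males, against 2.99, 0.852 and 2.63 CPM in vehicle females and 1.23 and 2.48 CPM in vehicle males. No PFOA liver was as low as a vehicle liver, and the rise was log2 1.59 ± 0.36 (adjusted p = 0.00898 by edgeR). E2f1, the activating factor, had a log2 fold change of 0.56 and did not pass (adjusted p = 0.0662 by edgeR).

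Origin licensing and helicase genes gave 4 rises and 1 fall among 11 tested, with a median log2 fold change of 0.50. Mcm2 and Mcm3 belong to the MCM2-7 ring that unwinds DNA, and Cdc45 and Gins2 to the factors that activate it. Gins2 had 1.29 and 1.65 CPM in PFOA females and 1.03, 1.3 and 1.08 CPM in PFOA males, against 0.427, 0.426 and 0.346 CPM in vehicle females and 0 and 0.335 CPM in vehicle males, where 24 reads in all were counted. It rose by log2 2.16 ± 0.42 (adjusted p = 0.00238 by edgeR), and Cdc45 by 1.25 ± 0.28, both with groups apart. Mcm2 rose by 0.73 ± 0.18 and Mcm3 by 0.50 ± 0.14. Their PFOA and vehicle ranges overlapped. Gins1, a partner of Gins2 in the same complex, fell by 0.55 on the log2 scale (SE 0.17, adjusted p = 0.0374 by edgeR), with 1.94 to 3.6 CPM in PFOA livers against 3.89 to 6.14 CPM in vehicle livers. Its groups were apart, although the call was lost in 7 of 17 alternatives. Mcm4, Mcm5, Mcm6, Mcm7, Mcm10 and Cdt1 had log2 changes between -0.38 and 0.95 and did not pass. Cdc6 stayed under the filter on low counts in both single-genotype fits, with at most 0.852 CPM in any library.

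No fork or nucleotide supply gene rose, and 1 of 5 fell. Pcna, the sliding clamp of replication forks, had 5.62 and 6.82 CPM in PFOA females and 4.73, 6.19 and 7.71 CPM in PFOA males, against 6.46, 5.41 and 4.84 CPM in vehicle females and 4.87 and 6.98 CPM in vehicle males. The groups overlapped almost wholly (log2 0.11 ± 0.17, adjusted p = 0.675 by edgeR). Tk1, thymidine kinase, had 23.2 and 25.7 CPM in PFOA females and 16.1, 20.4 and 24 CPM in PFOA males, against 48.1, 44.8 and 37.4 CPM in vehicle females and 31.7 and 34.9 CPM in vehicle males. It fell by 0.78 on the log2 scale with no overlap (SE 0.12, adjusted p = 0.00036 by edgeR). Rrm1 and Rrm2, the subunits of ribonucleotide reductase, and Tyms did not pass. Tk1 overlaps Afmid, Cdk4 overlaps Tspan31, Cdc20 overlaps Elovl1 and Kif20a overlaps Brd8 in the annotation, 23 of the 50 members overlap another gene, and whether counting used strand is not stated in the labels.

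Cdkn1a had 8.66 and 10.7 CPM in PFOA females and 22.5, 18.1 and 9.94 CPM in PFOA males, against 1.71, 1.09 and 7.4 CPM in vehicle females and 2.01 and 1.41 CPM in vehicle males. The inhibitor was above every vehicle liver in each PFOA liver (log2 2.32 ± 0.61, adjusted p = 0.0298 by edgeR). Its call was lost in 8 of 17 alternatives, 7 of which left out 1 library each, with log2 fold changes of 2.03 to 3.05 and adjusted p up to 0.0868 by edgeR or DESeq2. Without hPPARa female PFOA replicate 2 it was 2.49 (adjusted p = 0.0759 by edgeR), and 20 G2/M members rose (median 1.73), 5 G1/S members rose and 1 fell (median 0.18). The members that passed with that library and not without it were Aurkb (1.73 without it, adjusted p = 0.068 by edgeR), Anln (1.05, adjusted p = 0.0658), Birc5 (0.66, adjusted p = 0.109), Cdk4 (0.27, adjusted p = 0.0765), Mcm3 (0.47, adjusted p = 0.079), Ccne1 (-0.91, adjusted p = 0.0901), Gins1 (-0.54, adjusted p = 0.103) and Cdkn1a. The summed G2/M level of that library was 156 CPM, the upper end of the hPPARa PFOA range of 44.7 to 156 CPM, and hPPARa vehicle livers had 15.2 to 31.6 CPM.

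**Figure D4:**
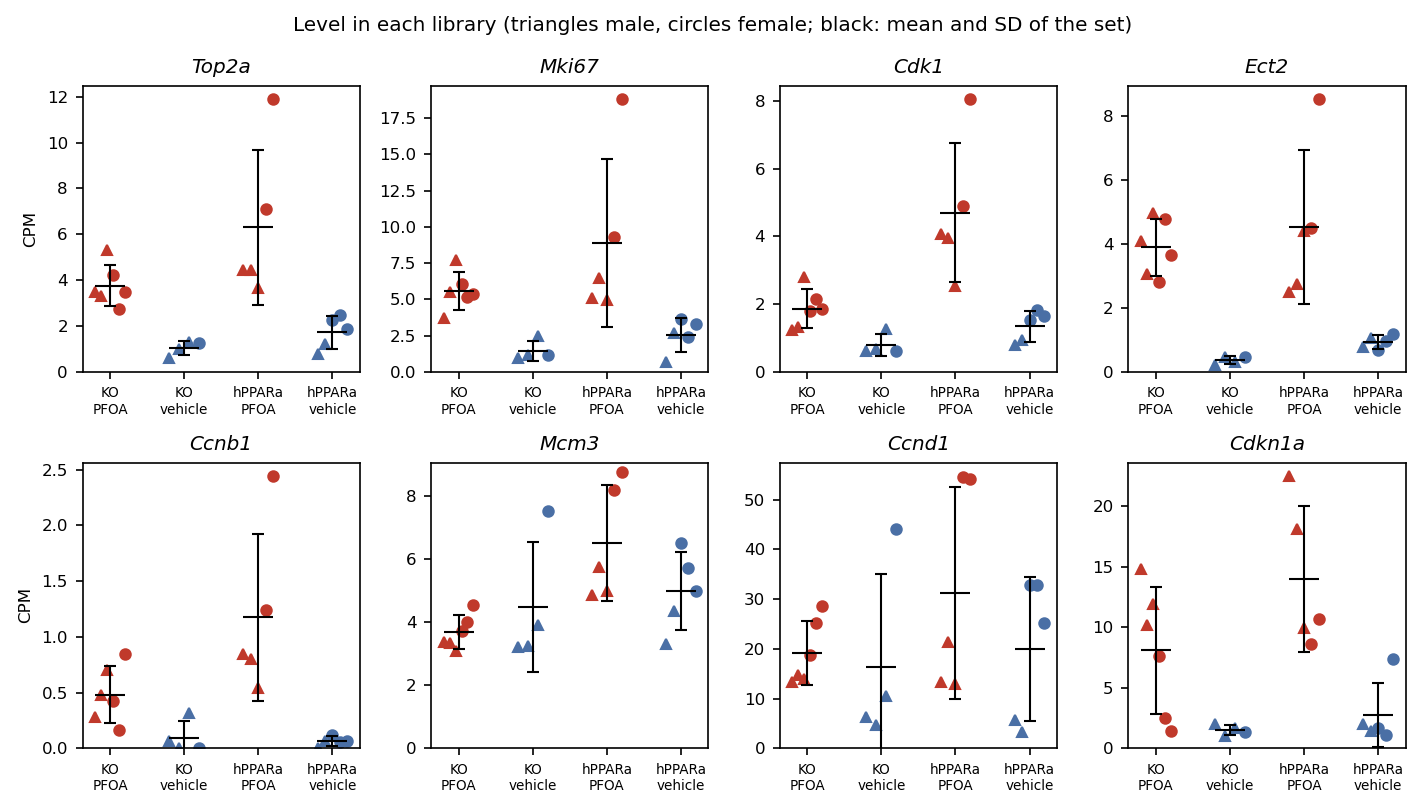
CPM of 8 genes in each library, males as triangles and females as circles, with the mean and SD of each genotype and exposure group. All PFOA livers sit above all vehicle livers of their genotype in Top2a, Mki67 and Ect2, Cdk1 overlaps in KO livers only through 1 vehicle male at 1.26 CPM, Mcm3 differs between KO and hPPARa on PFOA, and Ccnd1 runs by sex.

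In KO livers the G2/M genes rose as well, and few G1/S genes passed. Of 25 G2/M members 16 rose and none fell, at a median of 1.48 on the log2 scale, and all 25 values were positive. No KO vehicle liver reached 10 reads of Ect2, Ccnb1, Ccnb2, Cenpe or Cenpf, so these passed the filter only through PFOA livers. Of 23 G1/S members tested E2f8 rose and Ccne1 fell, with a median of -0.06, and Cdkn1a rose. Among all 15334 genes tested in the 6 PFOA and 4 vehicle KO livers 7.41% rose and 6.36% fell. All PFOA livers lay above all vehicle livers in 16 G2/M members, against 5.67% of all genes.

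Ect2 had the largest fold change of the 50 members in KO livers. It had 2.82 to 4.96 CPM in PFOA livers (median 3.87), against 0.465 CPM in the vehicle female and 0.2, 0.473 and 0.315 CPM in the vehicle males, a 10.4-fold rise (log2 3.38 ± 0.31, adjusted p = 2.26e-05 by edgeR). Top2a had 2.75 to 5.31 CPM in PFOA livers (median 3.48), against 1.24 CPM in the vehicle female and 0.601, 1.01 and 1.32 CPM in the vehicle males. Mki67 had 3.7 to 7.71 CPM in PFOA livers (median 5.42), against 1.14 CPM in the vehicle female and 0.935 to 2.46 CPM in the 3 vehicle males. None of the 3 genes overlapped between exposures. Top2a rose 3.57-fold (adjusted p = 0.00081 by edgeR) and Mki67 4.01-fold (adjusted p = 0.000782 by edgeR).

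By role, 4 of 6 mitotic entry genes, 5 of 8 chromosome genes, 3 of 5 spindle genes and 4 of 6 anaphase genes rose in KO livers. Cdk1 had 1.23 to 2.8 CPM in PFOA livers (median 1.83), against 0.62 CPM in the vehicle female and 0.601, 0.676 and 1.26 CPM in the vehicle males. Vehicle male replicate 3, at 1.26 CPM, lay above the lowest PFOA liver, and the rise was log2 1.24 ± 0.34 (adjusted p = 0.0271 by edgeR). Cdc20 (2.53 ± 0.41), Tpx2 (2.54 ± 0.46), Ccnb2 (2.55 ± 0.45) and Cenpf (2.58 ± 0.46) rose on the log2 scale. Ccnb1 had 0.165 to 0.843 CPM in PFOA livers and 6 reads over 4 vehicle livers, and its change of 2.38 ± 0.84 did not pass (adjusted p = 0.0758 by edgeR). Plk1, Birc5, Bub1, Bub1b, Aurka, Kif11, Prc1 and Anln also did not pass.

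Among the G1/S genes of KO livers, E2f8 rose by log2 1.61 ± 0.44 (adjusted p = 0.0353 by edgeR), with 3.47 to 7.46 CPM in PFOA livers against 0.775 CPM in the vehicle female and 1.4, 3.99 and 1.32 CPM in the vehicle males. Ccne1 fell by 1.21 on the log2 scale (SE 0.24, adjusted p = 0.00554 by edgeR), with 1.23 to 3.62 CPM in PFOA livers against 4.34 CPM in the vehicle female and 7.35, 7.3 and 7.82 CPM in the vehicle males. Its groups were apart, as were 3.97% of all genes in that direction, and those of E2f8 overlapped through vehicle male replicate 2, with the E2f8 call lost in 8 of 18 alternatives. No licensing, helicase, fork or nucleotide gene passed, with log2 changes of 0.15 ± 0.36 for Gins2 (adjusted p = 0.83 by edgeR), -0.39 ± 0.18 for Mcm3, -0.12 for Pcna and -0.33 for Tk1. Cdkn1a had 1.41 to 14.8 CPM in PFOA livers (median 8.95), against 1.34 CPM in the vehicle female and 2, 1.01 and 1.7 CPM in the vehicle males. It rose 5.79-fold (adjusted p = 0.0129 by edgeR), although KO female PFOA replicates 2 and 3, at 2.53 and 1.41 CPM, were near the vehicle level. Without the 3 KO libraries named above for Ddx3y or Xist, 7 G2/M members rose (median 1.73 over 24 tested), namely Mki67, Top2a, Cenpe, Tpx2, Hmmr, Cdc20 and Ect2. Ccne1 still fell, and E2f8 and Cdkn1a did not pass. That setting leaves 7 libraries and no vehicle female, so its PFOA effects come from the males alone.

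The KO and hPPARa livers on PFOA were then compared directly, to ask how the level of these genes under exposure differed with the receptor's genotype. Of the 50 members none was higher and 11 were lower in KO livers, 8 of G2/M and 3 of G1/S, and all 25 G2/M members had a negative log2 fold change (median -0.74). The G1/S median was -0.29 over 24 members. Among all 15811 genes tested 7.13% were higher and 7.79% lower, with a median of 0.00. In the vehicle livers no member passed by edgeR or DESeq2, with medians of -0.29 for G2/M and 0.07 for G1/S, and of all genes 2% were higher and 1.76% lower (3.77% in all). The G2/M median on vehicle was -0.62 without KO male vehicle replicate 3 and -0.53 without the 3 KO libraries, and the G1/S median was -0.03 without those 3. An unadjusted p under 0.05 was found on vehicle for 5 of 50 members and 3108 of 15811 genes. Of these 5, Ect2 had a log2 fold change of -1.25 ± 0.40 (adjusted p = 0.0819 by edgeR) and its KO and hPPARa vehicle livers did not overlap, which held for 3.48% of all genes in that direction and 2.95% in the other.

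The call of the G2/M genes on PFOA rested largely on a single library. Without hPPARa female PFOA replicate 2, Cdk1 alone of the G2/M members was lower in KO livers, at -1.21 (adjusted p = 0.0035 by edgeR), and the G2/M median was -0.47 with 3 of 25 values positive. With all libraries Cdk1 was lower by 1.36 (SE 0.23, adjusted p = 0.000297 by edgeR), Top2a by 0.75, Cenpe by 0.96, Hmmr by 1.10, Cdc20 by 1.12, Ube2c by 0.93, Kif20a by 1.11 and Prc1 by 0.98 on the log2 scale. Hmmr (adjusted p = 0.0496 by edgeR) lost its call in 17 of 26 alternatives and Cdc20 in 8. Without hPPARa male PFOA replicate 1, and likewise without replicate 2, 7 members of the 50 were lower, and without the 3 KO libraries 5 were lower (Mcm3, Rrm1, Cdk1, Ube2c and Kif20a). Mki67 (-0.64 ± 0.27, adjusted p = 0.116) and Ect2 (-0.21 ± 0.23, adjusted p = 0.595) did not pass by edgeR with all libraries.

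Mcm3, Rrm1 and Cdk1 were lower in KO livers on PFOA in the full set and in all 26 alternatives tried. On vehicle none of them passed, and their ranges overlapped. Rrm1 had 101 to 164 reads in KO and 143 to 191 reads in hPPARa vehicle livers. Cdk1 had 9 to 20 and 12 to 30 reads, and Mcm3 48 to 146 and 51 to 107 reads. Among them, only Mcm3 passed the test of whether the PFOA effect differed between genotypes. Mcm3 had 3.1 to 4.55 CPM in KO PFOA livers (median 3.54), against 8.21 and 8.75 CPM in hPPARa PFOA females and 4.85, 5.76 and 5 CPM in hPPARa PFOA males. Every KO liver lay below every hPPARa liver, and the log2 fold change was -0.86 ± 0.14 (adjusted p = 0.000286 by edgeR). Such separation was found in 2 of 50 members, Mcm3 and Gins2, near the 4.96% of all genes that were apart in that direction. Rrm1 had 6.18 to 8.88 CPM in KO PFOA livers (median 8.27), against 13.7 and 17.2 CPM in hPPARa PFOA females and 8.6, 11.3 and 10.6 CPM in hPPARa PFOA males, a log2 fold change of -0.64 ± 0.13 (adjusted p = 0.00219 by edgeR). Only hPPARa male PFOA replicate 1 fell inside the KO range. Mcm4, another ring subunit, was lower by 0.65 (SE 0.20, adjusted p = 0.0358 by edgeR), a call lost in 9 of 26 alternatives. Gins2, with 0.538 to 0.896 CPM in KO PFOA livers and groups apart, was not called (-0.95, adjusted p = 0.0544 by edgeR).

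**Figure D5:**
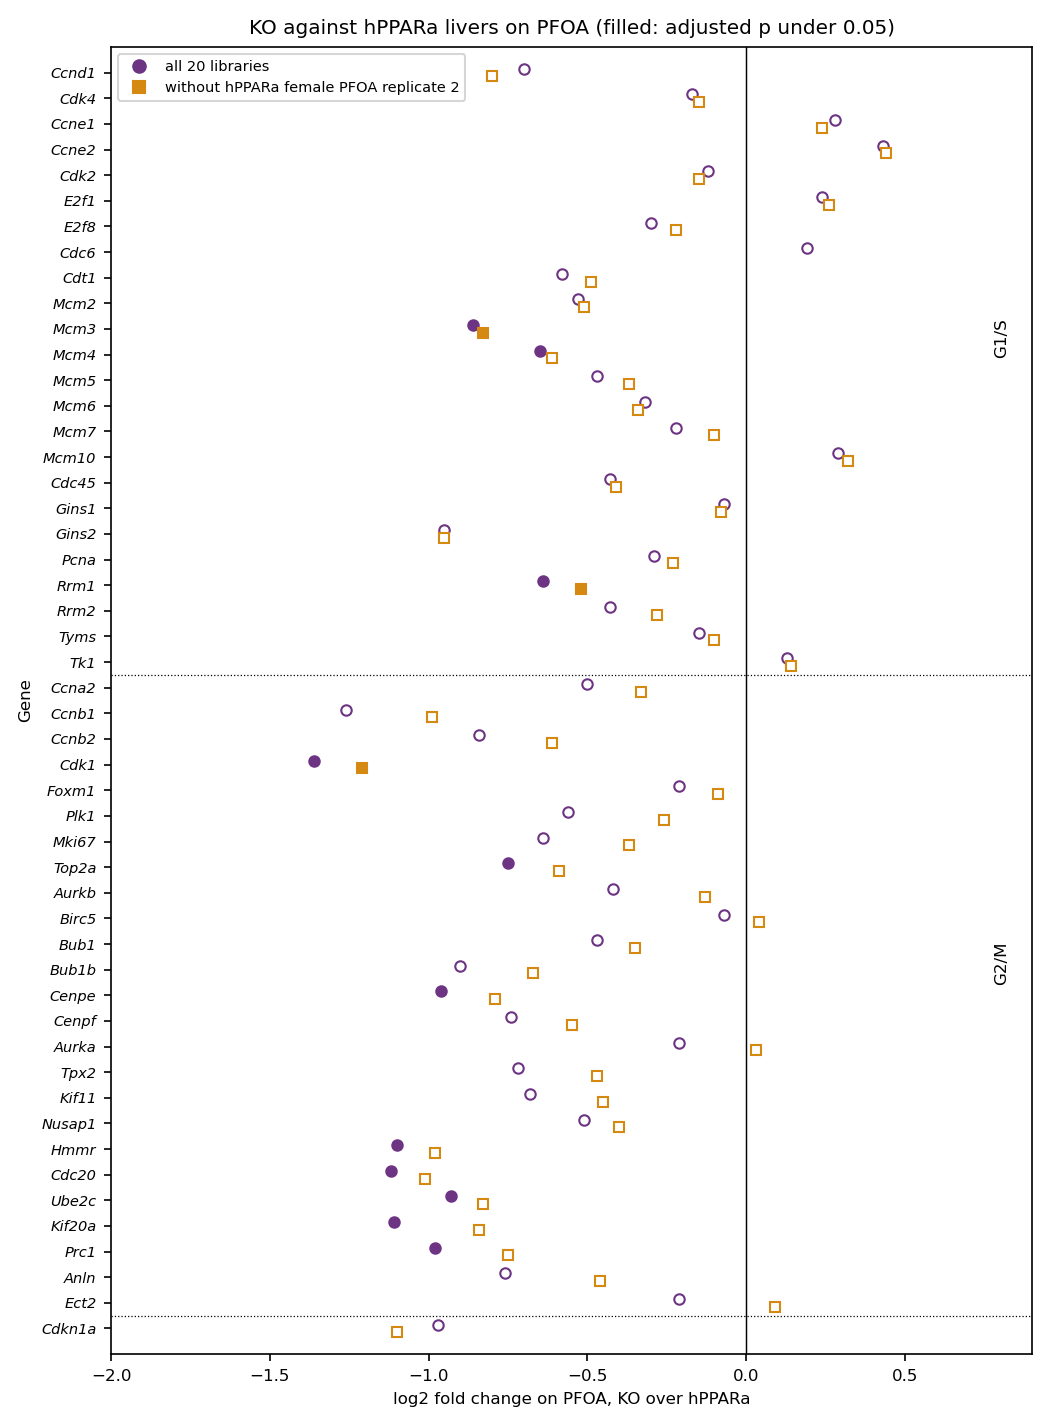
log2 fold change of KO over hPPARa livers on PFOA for each gene, with all 20 libraries (circles) and without hPPARa female PFOA replicate 2 (squares); filled symbols passed an adjusted p of 0.05. Each G2/M circle lies left of its square, and Mcm3, Rrm1 and Cdk1 are filled in both.

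Whether the PFOA effect itself differed between genotypes was tested as an interaction, the effect in KO minus the effect in hPPARa livers. Mcm3 was the only member that passed, at -0.89 ± 0.22 on the log2 scale (adjusted p = 0.0442 by edgeR), where 1.17% of all genes passed. In KO livers Mcm3 had 7.54 CPM in the vehicle female and 3.21, 3.24 and 3.91 CPM in the vehicle males, so its within-sex log2 change was -0.07 in KO males and -0.89 in KO females. In hPPARa livers it was 0.44 in males and 0.55 in females. Mcm3 lost the call in 17 of 26 alternatives, and without KO female vehicle replicate 1 its interaction was -0.58. In that fit the KO effect comes from males alone. Gins2 (-2.03 ± 0.56, adjusted p = 0.0784) and Kif20a (-1.59 ± 0.48, adjusted p = 0.114) did not pass by edgeR. For Mki67 the difference was 0.02 ± 0.42, for Top2a -0.25 ± 0.34 and for Ect2 1.04 ± 0.46, none of which passed. Medians of the interaction were -0.31 for G2/M and -0.30 for G1/S members. The G2/M median was -0.10 without hPPARa female PFOA replicate 2, -0.54 without hPPARa male vehicle replicate 2, and leaving out KO male vehicle replicate 3 gave -0.14. An unadjusted p under 0.05 was found for 9 of 50 members and 2213 of 15811 genes. DESeq2 called 2 members in this test.

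By sex, the G2/M genes had positive PFOA effects in each of the 4 subsets, in 25 of 25 members, with median log2 fold changes of 1.54 in KO males, 1.62 in KO females, 1.78 in hPPARa males and 2.09 in hPPARa females. The KO female values rest on 1 vehicle library, which also held Ddx3y reads. The hPPARa female values rest on 2 PFOA livers, replicate 2 among them. The test of the PFOA effect in males minus that in females called none of the 50 members in either genotype, where 0.15% of all genes passed as higher and 0.0913% as lower in KO livers, and 0.0417% and 0.0625% in hPPARa livers, by edgeR (0.241% and 0.104% in all). In KO livers 5 members and 1635 of 15334 genes had an unadjusted p under 0.05, and in hPPARa livers 4 members and 1477 of 14400 genes did, while DESeq2 called 1 member in KO and 0 in hPPARa livers. The male minus female difference had a G2/M median of -0.35 in hPPARa livers, and of -0.02 without hPPARa female PFOA replicate 2. In KO livers that median was 0.16, and 0.52 without KO male vehicle replicate 3. The level of Ccnd1 differed by sex. In KO livers it had 13.4, 14.8 and 14 CPM in PFOA males against 6.21, 4.73 and 10.6 CPM in vehicle males, and 18.8, 25.1 and 28.7 CPM in PFOA females against 44 CPM in the vehicle female. The male minus female difference of the PFOA effect was 1.85 ± 0.41 (adjusted p = 0.139 by edgeR), DESeq2 gave 1.84 (adjusted p = 0.0059), and without KO male vehicle replicate 3 it was 2.23 (adjusted p = 0.00744 by edgeR), with that 1 vehicle female carrying the female baseline. Without that female the PFOA effect on Ccnd1 in the KO fit was 0.97 (adjusted p = 0.0414 by edgeR), against 0.21 ± 0.37 with it. That fit has no vehicle female, so its value is the effect in KO males, which was also 0.97 within that sex. In KO females the within-sex log2 change was -0.88. The male minus female difference in hPPARa livers was 0.99 ± 0.35 (adjusted p = 0.375 by edgeR).

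Within groups, correlations were higher among G2/M genes than among the others. After each library's group mean was taken away, the median Pearson correlation over 19 libraries (the lone KO vehicle female left out) was 0.48 for 300 G2/M gene pairs, 0.17 for 276 G1/S pairs and 0.10 for 600 mixed pairs. These genes share their libraries and depth, so the values are a description across libraries and carry no test. The 19 include hPPARa female PFOA replicate 2, the highest library in 25 of 25 G2/M members, and no correlation was taken without it. In a group of 2 libraries, such as its own, the deviations mirror each other.

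Further genes of the cycle, not among the 50, were counted the same way. Of all genes tested, 12.8% rose and 9.76% fell in hPPARa livers, and 7.41% rose and 6.36% fell in KO livers. On PFOA 7.13% were higher and 7.79% lower in KO than in hPPARa livers. Of 41 further mitosis genes tested in hPPARa livers 27 rose and none fell (median 1.26), among them Ckap2 (3.65 ± 0.32), Ckap2l (3.07), Kif2c (3.02) and Cdca3 (1.77) on the log2 scale. In KO livers 16 of 42 rose and none fell (median 1.07), with Ckap2 at 3.31 and the centralspindlin protein Racgap1 at 2.24. On PFOA 16 of 43 were lower in KO than in hPPARa livers and none was higher (median -0.70), with the kinetochore genes Spc25 and Nuf2 at -1.50 and -1.44. That count was not taken without hPPARa female PFOA replicate 2, the highest library for Spc25 (8.69 CPM) and Nuf2 (3.52 CPM). Of 38 further replication genes 10 rose and 1 fell in hPPARa livers (median 0.21), with the histone chaperone Chaf1a at 1.40 and the ligase Lig1 at 0.71. In KO livers 3 of 38 rose (median 0.01), Chaf1b, Orc3 and Orc4, near the share of all genes that rose there.

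Lists upstream of the cycle were mixed. Of all genes, 7.41% rose and 6.36% fell in KO livers, and 12.8% rose and 9.76% fell in hPPARa livers. In lists of 11 to 15 genes, 1 or 2 calls lie near those shares. Of 15 RB and E2F pathway genes, 2 rose and 1 fell in each genotype, with log2 changes of 0.95 in KO and 0.84 in hPPARa livers for E2f2, 0.85 and 0.72 for E2f3, and -0.69 and -0.53 for Tfdp2. Of 18 p53 target genes 5 rose in KO and 9 in hPPARa livers, and none fell. The secreted stress factor Gdf15 rose by 3.53 in KO and 3.68 in hPPARa livers, and the receptor Eda2r by 2.58 and 2.16. Of the other inhibitors and cyclins, Ccng1, Ccng2 and the phosphatase Cdkn3 rose in both genotypes. Of 11 regulators of polyploidy and cytokinesis Mob1a rose in KO livers and Lats2 fell in both genotypes. Of 18 genes tested in KO livers from a list drawn up around growth stimuli, 3 rose and none fell, namely Myc (1.64), Gadd45a (2.55) and Gadd45b (3.34). The list also holds Gadd45 genes, named for growth arrest and DNA damage, so its counts do not measure a growth stimulus. Of 17 genes of that list tested in hPPARa livers 4 rose, with Ccn2 at 0.94. The 3 that fell were Mycn at -2.86, Gadd45g at -1.78 and Egfr at -1.37 on the log2 scale.

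Markers of other cell types were read beside these results because dividing cells in liver need not be hepatocytes. Of all genes, 7.41% rose and 6.36% fell in KO livers, and 12.8% rose and 9.76% fell in hPPARa livers. On PFOA 7.13% were higher and 7.79% lower in KO than in hPPARa livers. Of 11 endothelial markers 2 rose in KO livers and 6 in hPPARa livers, and 6 were lower in KO than in hPPARa livers on PFOA. Their summed level was 343 to 425 CPM in KO PFOA and 418 to 538 CPM in hPPARa PFOA livers, against 290 to 455 CPM in KO vehicle and 406 to 513 CPM in hPPARa vehicle livers. Of 12 Kupffer cell markers 3 rose in KO and 5 fell in hPPARa livers, and 9 were higher in KO livers on PFOA, with sums of 338 to 567 CPM in KO PFOA, 165 to 428 CPM in hPPARa PFOA, 175 to 387 CPM in KO vehicle and 186 to 547 CPM in hPPARa vehicle livers. Neutrophil markers summed to 90 to 327 CPM in KO PFOA, 5.14 to 10.8 CPM in hPPARa PFOA, 0.883 to 3.78 CPM in KO vehicle and 2.35 to 3.32 CPM in hPPARa vehicle livers. S100a8 alone had 87.8 to 325 CPM in KO PFOA livers, nearly all of those sums, and 2.85 to 8.48 CPM in hPPARa PFOA livers. It was the only one of 3 testable neutrophil markers to rise in either genotype, and Ly6g, a defining marker, was at 0 in all KO PFOA livers. T and NK cell markers summed to at most 10.7 CPM and B cell markers to at most 10.1 CPM in any library, and none passed. Of 7 cholangiocyte markers tested in KO livers 6 fell, with sums of 36.3 to 75.5 CPM in KO PFOA against 82.1 to 218 CPM in KO vehicle livers, and in hPPARa livers, at 37.6 to 66.3 CPM on PFOA against 49.1 to 58.4 CPM on vehicle, none of 6 passed. Of 11 stellate cell markers 4 fell in KO and 3 in hPPARa livers, and of 7 erythroid markers Klf1 fell in hPPARa livers. Of 12 hepatocyte markers 2 fell in KO and 5 in hPPARa livers. Of 6 mitochondrially encoded genes tested mt-Nd4 and mt-Cytb fell in each genotype, with sums of 63900 to 89600 CPM in KO PFOA and 59900 to 116000 CPM in hPPARa PFOA livers, against 75900 to 132000 CPM in KO vehicle and 87000 to 116000 CPM in hPPARa vehicle livers. The part of any of these cells in the cell cycle result was not tested.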

How the data were processed

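Total RNA from bulk liver was sequenced, per the labels' protocols, after selection of samples with a RIN above 7. The authors deposited raw counts per gene symbol, 1 table per genotype, and the submitters' processing notes name cutadapt 1.15, FastQC 0.11.5, STAR 2.5.3, featureCounts 1.6.1, R 4.1.0, edgeR 3.36.0 and the build GRCm39. Which annotation release and strand setting were used is not given there. From these counts, edgeR 4.0.16 in R 4.3.3 was run with TMM scaling, the filterByExpr filter at 10 counts, robust quasi-likelihood tests and Benjamini-Hochberg adjustment over all genes, at a threshold of 0.05. Levels (CPM) are counts scaled to the TMM-adjusted library totals. Single-genotype fits used the 10 libraries of that genotype with sex as a covariate, and genotype contrasts all 20 with sex and exposure within genotype. Standard errors are the fold change over the root of the F statistic. Totals of 14973673 to 17953860 counts leave genes under 1 CPM with few reads. The fits were tested on simulated data. Replicates of a group differed by 6.96 to 39.9 in chi-square per gene, so none were counted as 1. All 50 genes could be named. From each further list, counts and up to 4 called genes with the smallest adjusted p were given. Members, lists and tests were chosen with earlier results of these data known. Because the labels do not name litters or cages, p-values reflect the spread among these livers alone, part of which may be technical. Alternatives were DESeq2 1.42.0, RLE scaling, other filters, a replicate block, other models, each library left out, and 3 KO libraries left out because they held Y-linked or Xist reads against their labelled sex. Promoter letters came from RefSeq windows of GRCm38.p6, a different build, used by gene name only.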

Additional observations from a re-analysis of the deposited data

Results flagged for a closer look

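The PFOA effect on Mcm3 differed between genotypes by the test of the difference itself, at -0.89 on the log2 scale (KO minus hPPARa). That call was lost in 17 of 26 alternatives, and the value was -0.58 without KO female vehicle replicate 1. Mcm3 was 1 of 50 members to pass, where 1.17% of all genes passed. The further values are single libraries that stood far from the rest of their genotype and exposure group, in 14 of 200 groups of 4 to 6 libraries checked, where chance alone marks about 1 in 20.

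In KO vehicle livers, female replicate 1, the lone female, had 44 CPM of Ccnd1, 4.34 CPM of Ccne1 and 7.54 CPM of Mcm3, and male replicate 3 had 3.85 CPM of Cdt1, 1.26 CPM of Cdk1, 2.46 CPM of Mki67 and 2.96 CPM of Birc5. In KO PFOA livers, male replicate 3 had 3.97 CPM of Ccna2 and 2.04 CPM of Plk1. In hPPARa PFOA livers, female replicate 2 had 2.84 CPM of Plk1. In hPPARa vehicle livers, female replicate 1 had 16.1 CPM of Cdk2 and 9.69 CPM of Mcm7, female replicate 3 had 7.4 CPM of Cdkn1a, and male replicate 1 had 0 CPM of Gins2.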

How the results depend on the processing

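No called value changed sign under the settings tried, while values near 0 that did not pass did in some, such as the G2/M median by sex in KO livers (-0.23 to 0.52) and the G1/S median on vehicle (-0.03 to 0.13). The G2/M median under PFOA ran from 1.73 to 2.18 in hPPARa livers and from 1.30 to 1.87 in KO livers. In hPPARa livers 34 members passed (26 to 36 with 1 library left out), 7 G1/S members rose (5 to 9) and 23 G2/M members rose (20 to 23). In KO livers 19 passed (13 to 22 with 1 library left out, 8 without the 3 KO libraries that held Y-linked or Xist reads against their labelled sex), 16 G2/M members rose (11 to 20, 7 without the 3) and 1 G1/S member rose (0 to 1, 0 without the 3 and 0 with the replicate block). On PFOA 11 members were lower in KO livers (3 to 14, 5 without the 3), 8 of G2/M (1 to 10, 3 without the 3) and 3 of G1/S (2 to 5, 5 by DESeq2). On vehicle 0 passed (0 to 1, 1 with no filter). The interaction with genotype called 1 member (0 to 1, 2 by DESeq2, 3 with no filter, 0 with the replicate block and 0 without the 3). By sex 0 passed in KO livers (0 to 1 over 9 left out, 1 by DESeq2, 1 with no filter) and 0 in hPPARa livers (0 throughout, 3 with no filter). The KO sex test could not be fitted without KO female vehicle replicate 1 or without the 3 libraries, since that female is the only one of its group. The cause of these changes was not tested.

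Over all genes the KO PFOA count was 2113 and 630 without the 3. The hPPARa PFOA count was 3253, and 1905 and 2070 without hPPARa female PFOA replicates 1 and 2. The vehicle count was 596, 917 by DESeq2, 1013 with no filter and 195 without the 3. The interaction count was 185, 431 by DESeq2, 545 with no filter and 39 without the 3. The sex counts were 37 in KO livers (172 by DESeq2, 381 with no filter, 13 with the filter by exposure, 10 with the replicate block) and 15 in hPPARa livers (138 by DESeq2, 323 with no filter). Same-numbered libraries of different groups did not deviate together (22 pairs, correlations of -0.16 to 0.16, 3 over 0.1). Whether the samples paired by the replicate block share more than a number is not stated in the labels. Levels under 1 CPM limit Ccnb1, Gins2 and Cdc6. Vehicle levels under 1 CPM also limit other members, among them Cenpf, Cenpe, Hmmr, Plk1, Bub1 and Bub1b in both genotypes and Ect2 in KO livers. Their fold changes rest on few vehicle reads.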
